A study of Mus musculus with 16 samples.

Results

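The efferent ducts of adult male mice of strain 129BL/6 were compared between castrated and sham-castrated animals that had both received vehicle only. The members are the 2 arrays titled as castrated and the 2 titled as sham-castrated among the 8 efferent duct arrays, 4 of 16 arrays in all. After surgery the animals recovered for 14 days, were given 100 µL of 10% ethanol in sesame oil, and the tissue was taken 12 hours later. The other efferent duct arrays came from castrated animals given 0.015 mg testosterone propionate or 0.015 mg estradiol. The other tissue of the series is the caput epididymis, from the same 4 treatments. Each treatment was run in duplicate, but the labels do not say that the 2 arrays of a group came from separate animals, so p-values measure only the spread between these samples. No gene was altered and no hormone was given to either group compared. The contrast is that of animals with and without testes.

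The efferent ducts are narrow coiled tubules between the rete testis and the head of the epididymis, through which sperm pass in testicular fluid. Their nonciliated cells take up most of the testicular fluid through sodium and proton exchange, anion exchange and water channels, and take up proteins by endocytosis, while ciliated cells stir the lumen. The epithelium is known for abundant estrogen receptor alpha, and loss of that receptor is known to impair fluid uptake. Castration removes testicular androgen and estrogen, sperm and luminal fluid together, and their effects cannot be told apart in these samples.

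Expression was read as the intensity of 1 probe set per gene, the brightest of those with a single gene symbol, on the deposited linear scale. Values under 16 were set to 16 before log2 was taken, and 13174 of 18193 genes had a group mean above 16 and were tested. Differences are castrated minus sham on the log2 scale from limma, with the 8 efferent duct arrays sharing an estimate of the spread, and a gene is said to have changed where its Benjamini-Hochberg adjusted p was under 0.05. Where both arrays of a group lay at or under 16, the fold is a lower bound. Of the markers of the tissue, Esr1, the gene of estrogen receptor alpha, lay between 3600 and 3818 on the 4 arrays, above the 511 to 1065 of the vehicle caput arrays. The ciliated cell regulator gene Foxj1 lay between 70.1 and 102, below the 123 and 118 of castrated caput, and does not tell the tissues apart. Sham array 2 held genes of the caput that were under 16 on sham array 1, such as the lipocalin gene Lcn8 at 1126 against 15.5. Cubn, the gene of the endocytic receptor cubilin, lay at 17.5 and 6.61 on the sham arrays and 15.1 and 10.4 on the castrated arrays and was not tested.

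The arrays of a group were more alike than arrays of different groups. Across the 13174 genes, which are not independent replicates, log2 values correlated at 0.978 between the sham arrays and 0.972 between the castrated arrays, and at 0.943 to 0.948 across groups. The log2 ratio of the 3' to the 5' probe sets of actin, which is higher when transcripts are shortened, was 3.18 and 3.13 on the sham arrays and 3.87 and 3.11 on the castrated arrays, so castrated array 1 stood apart. The Cre spike-in was 13.5 and 13.6 (log2) on the sham arrays and 14.1 and 14.0 on the castrated arrays, without overlap. The part of either in the results was not tested beyond the fits without 1 array given here.

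More genes were lower than higher after castration, and the falls were deeper. In total 616 genes changed, 4.68% of those tested: 414 fell, which is 3.14%, and 202 rose, which is 1.53%. Among the falls 105 reached 4-fold and 48 reached 8-fold, against 15 and 1 among the rises, and 498 of all changes reached 2-fold. The median difference over all genes tested was 0.0093. The groups did not overlap for any changed gene, nor for 51.0% of all genes tested. In 60 falls both castrated arrays, and in 23 rises both sham arrays, were at or under 16. The count rests on having 2 arrays in each group: it was 53 without sham array 1, 28 without sham array 2, 33 without castrated array 1 and 279 without castrated array 2, and 2874 genes had an unadjusted p under 0.05 with all arrays. Of 79 changed genes named by rule, all kept their direction in these 4 fits, while 15, 7, 13 and 31 of them stayed past the threshold, in the same order, and 45 stayed past it in none.

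**Figure D1:**
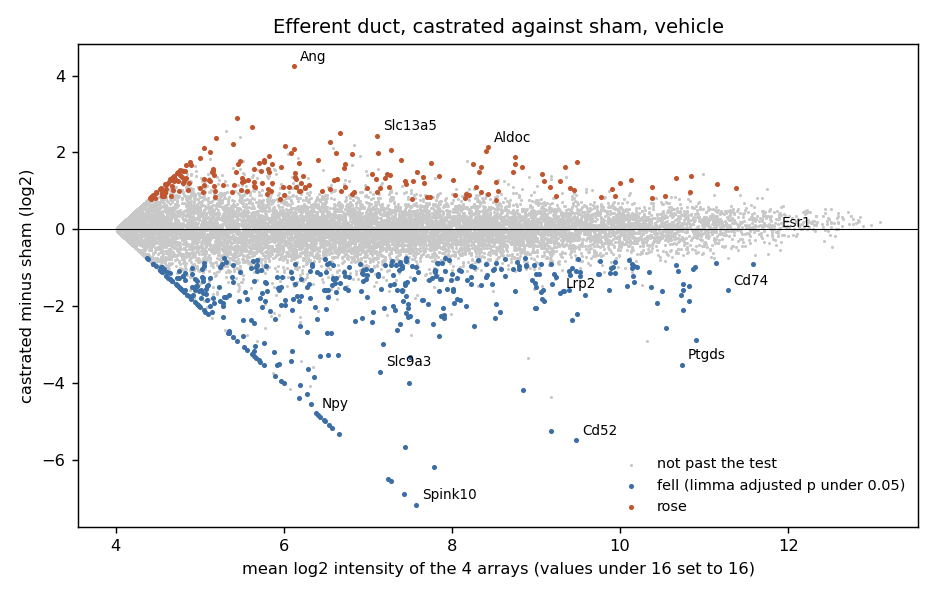
Each point is 1 of 13174 genes, with the mean log2 intensity of the 4 arrays on the x axis and the castrated minus sham difference (log2) on the y axis; blue points fell and orange points rose at limma's adjusted p under 0.05. The 414 falls extend below -7 and the 202 rises to 4.25, and the slanted lower and upper edges are genes held at 16 in 1 group.

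The largest falls included genes of secreted and surface proteins of the male tract. Spink10, a Kazal-type protease inhibitor gene, had intensities of 2535 and 2052 on the sham arrays and 11 and 8.59 on the castrated arrays. It fell at least 143-fold (log2 difference -7.16, 95% interval -7.83 to -6.48, limma adjusted p = 7.17e-05). Cd52, which encodes a small glycoprotein that sperm acquire in the epididymis, went from 4987 and 4534 to 105 and 109 and fell 44.3-fold (log2 -5.47, interval -5.96 to -4.98, limma adjusted p = 6.69e-05). In both genes every sham array was far above every castrated array and the arrays of a group lay close together.

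Npy, the neuropeptide Y gene, was at 402 and 479.5 on the sham arrays and 13.8 and 10.1 on the castrated arrays, at least 27.4-fold lower (limma adjusted p = 6.69e-05). Ly6f, of the Ly6 family of surface proteins, was at 661 and 439 against 7.74 and 9.57, at least 33.7-fold lower (limma adjusted p = 7.50e-05). Acbd7, which encodes an acyl-CoA-binding protein, stayed above 16 on all arrays, at 319.6 and 303 against 21.4 and 22, 14.3-fold lower (limma adjusted p = 0.000403). In these 3 genes the sham arrays were high and the castrated arrays low without overlap. Haao, an enzyme gene of tryptophan breakdown, was at 310.2 and 375 against 13 and 19.5, and Cad, whose product starts pyrimidine synthesis, at 259 and 313 against 32.8 and 26.7. Fbp1, the gluconeogenic fructose bisphosphatase, was at 742 and 721 against 117 and 143. These are 8 of the 14 genes, 13 falls and 1 rise, that stayed past the threshold whichever of the 4 arrays was left out. The other falls among the 14 were Crisp4, Cyp4a12a, Defb10, Gm4988 and Lrtm1, and the rise was the glutamate receptor gene Grik3. Crisp4, a cysteine-rich secretory protein gene of the epididymis, was at 144 and 207 against 6.33 and 1.85, at least 10.8-fold lower (limma adjusted p = 0.000465).

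Genes of protease inhibitors and defensins were also among the deepest falls. Spint4, a Kunitz-type inhibitor gene, was at 2574 and 1353 on the sham arrays and 1.23 and 0.852 on the castrated arrays, at least 117-fold lower (limma adjusted p = 0.00163). Serpina1f, a serpin gene, fell at least 35.4-fold from 624 and 515. Wfdc6a and Eppin encode whey acidic protein-type inhibitors. Wfdc6a fell at least 31.3-fold from 534 and 471, and Eppin fell 15.9-fold, from 836 and 617 to 54.0 and 37.9 (limma adjusted p = 0.0342, 0.169 to 0.224 with 1 array left out). The beta-defensin genes Defb11 and Defb2 encode small antimicrobial peptides. Defb11 went from 1576 and 1397 to 16.2 and 0.499 and Defb2 from 1396 and 1088 to 38.0 and 1.47, with 1 castrated array of each above 16. Defb10 went from 255 and 193 to 12.6 and 4.80, at least 13.9-fold lower (limma adjusted p = 0.000175).

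Several genes of secreted enzymes and carriers fell as well. Ptgds, the lipocalin-type prostaglandin D synthase, was among the brightest genes on the sham arrays at 5900.3 and 5634 and stood at 577 and 444 after castration, 11.4-fold lower (limma adjusted p = 0.00284). Its second probe set above 16 differed by -5.04 (log2). Ces5a, a secreted carboxylesterase gene, went from 3964 and 3204 to 170.3 and 52.1 (limma adjusted p = 0.0123). Mmp7, the matrix protease matrilysin, went from 1702 and 2248 to 48.2 and 245 (limma adjusted p = 0.0150). Castrated array 1 was the higher of its pair for Ces5a and castrated array 2 for Mmp7, and all stayed below the sham arrays. Odam, first known as a protein of tooth ameloblasts, was at 507 and 293 against 16.2 and 17.2, 23.1-fold lower (limma adjusted p = 0.00163). Adam7, a membrane protein of the epididymal epithelium, went from 1381 and 1484 to 13.2 and 4.96, Cwh43 from 735 and 554 to 0.617 and 0.866 and Lcn5, a retinoid-binding lipocalin gene, from 1393 and 2536 to 42.2 and 2.20. Whichever array was left out, Ptgds (limma adjusted p 0.0572 to 0.0875), Adam7 (0.138 to 0.180), Lcn5 (0.0911 to 0.161) and Ces5a (0.0811 to 0.152) no longer passed, though each kept its direction. The same held for Spint4 (0.0521 to 0.0712), Cwh43 (0.134 to 0.175), Serpina1f (0.0507 to 0.0727), Defb11 (0.0708 to 0.10) and Defb2 (0.0899 to 0.146).

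**Figure D2:**
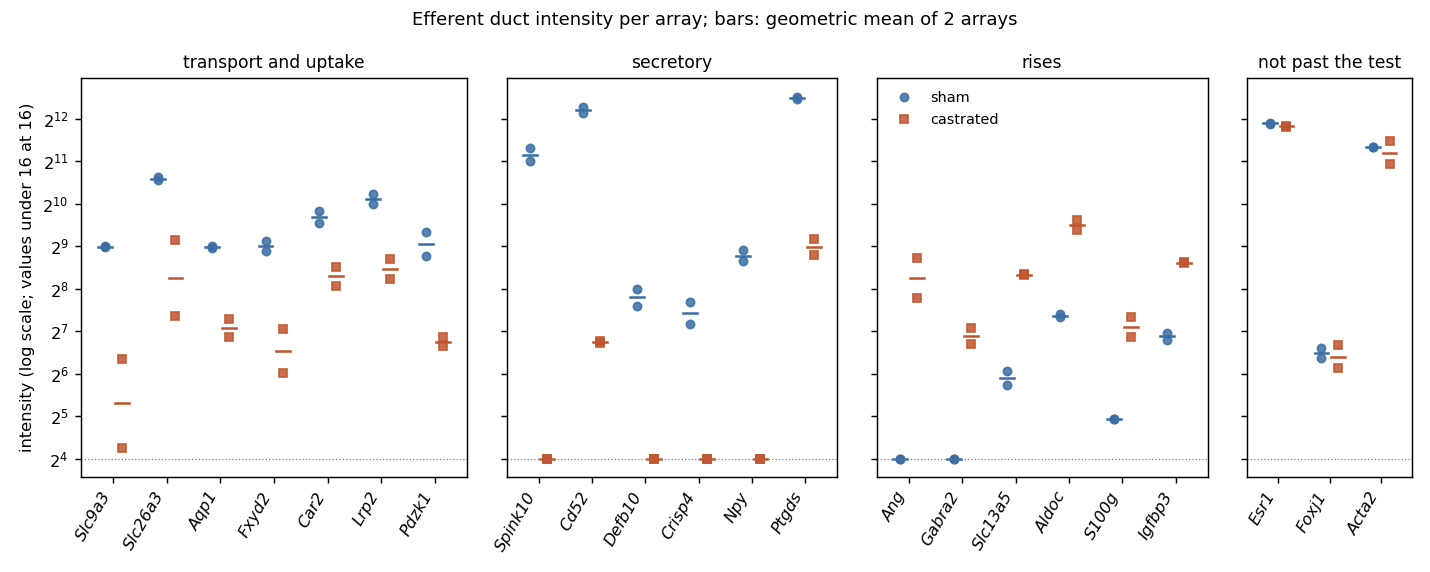
Intensity of chosen genes on each efferent duct array (log scale, values under 16 drawn at 16), with sham arrays as blue circles, castrated arrays as orange squares and the geometric mean of 2 arrays as a bar. Groups do not overlap for any gene of the first 3 panels, while for Foxj1 and Acta2, which did not pass the test, they do.

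Genes of fluid and ion transport were taken as a list of 26 tested members, of which 5 fell and none rose, against a background over all genes of 3.14% for falls and 1.53% for rises. The median difference was -0.65 (-0.86 to -0.38 with 1 array left out, smallest without castrated array 1). Slc9a3 encodes the apical sodium-proton exchanger through which fluid uptake is known to be driven. It was at 507 and 513 on the sham arrays and 19.1 and 81.3 on the castrated arrays, so that the castrated arrays differed 4-fold from each other and both lay far below the sham arrays. The fall was 12.9-fold (log2 -3.69, interval -5.17 to -2.21, limma adjusted p = 0.0227). Aqp1, the main water channel gene of this epithelium, was at 497 and 513 against 116 and 155, 3.77-fold lower (interval of the log2 difference -2.47 to -1.36, limma adjusted p = 0.00814). Slc26a3, an exchanger of chloride for bicarbonate, went from 1597 and 1500.4 to 163 and 569.8 (log2 -2.34, limma adjusted p = 0.0490).

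Fxyd2, a small subunit of the sodium pump, went from 472 and 561 to 133 and 65.0 (log2 -2.47, limma adjusted p = 0.00866), and its other bright probe sets differed by -3.00 and -3.09. Car2, the cytosolic carbonic anhydrase, went from 909.9 and 753 to 267 and 367 (log2 -1.40, limma adjusted p = 0.0324). The sham arrays were above the castrated arrays for each of the 5 genes. Other members did not pass: Cftr, the chloride channel gene, was at 127 and 122 against 48.1 and 92.5 (limma adjusted p = 0.263), Aqp9 at 185 and 129 against 72.0 and 101 (adjusted p = 0.236) and Car14 at 66.5 and 59.1 against 29.7 and 50.9 (adjusted p = 0.233). Slc4a4, a sodium bicarbonate cotransporter gene, was at 1950.4 and 1895 against 2076 and 2493, and Atp1b1, the beta subunit of the sodium pump, at 4206 and 3851 against 3151 and 3539.7. None of the 5 falls stayed past the threshold without sham array 1 or without sham array 2, 1 did without castrated array 1 and 4 did without castrated array 2. The log2 difference of Slc9a3 was -2.65 without castrated array 1 and -4.73 without castrated array 2 (limma adjusted p 0.0434 to 0.186 over the 4 fits), and that of Aqp1 was -2.13 to -1.70 (limma adjusted p 0.0497 to 0.112).

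Of 25 genes of endocytosis and the lysosome 4 fell and none rose, against a background of 3.14% for falls, with a median of -0.17. There were 1, 0, 0 and 2 falls without sham array 1, sham array 2, castrated array 1 and castrated array 2, in that order. Lrp2 encodes megalin, the large endocytic receptor of absorptive epithelia, and went from 1205 and 1024 to 299 and 418 (log2 -1.65, limma adjusted p = 0.0370, 0.117 to 0.216 with 1 array left out). Its second bright probe set differed by -2.01. Pdzk1, a scaffold of apical transporters, went from 437 and 642 to 116 and 100.2 (-2.30, limma adjusted p = 0.00482). Npc2, a lysosomal cholesterol carrier, went from 1285 and 1509.7 to 459 and 394 (-1.71, limma adjusted p = 0.00592), and its 2 other bright probe sets differed by -1.18 and -0.25. Cd74, the invariant chain of MHC class II, went from 4609 and 4041 to 1103 and 1887 (-1.58, limma adjusted p = 0.0187). Of the 25 members 19 had a negative difference. Some genes of the general machinery showed small differences. The clathrin heavy chain gene Cltc was at 2343 and 2536 against 2558 and 2485 and Rab7 at 3969 and 3606 against 3794 and 3859. The lysosomal protease gene Ctsb was at 2295 and 2539 against 2565 and 1925. The lysosomal gene Hexa was lower, at 551 and 710 against 248 and 358, and did not pass (limma adjusted p = 0.0557). Dab2, an adaptor that binds megalin, was at 1188 and 1251 against 539.7 and 755 and did not pass (limma adjusted p = 0.0760).

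Genes of motile cilia did not follow the transport genes. Of 43 tested members none changed, 38 had a positive difference, and the median was 0.43, against 0.0093 over all genes. The summed intensity of the list was 16947 and 16299.9 on the sham arrays and 22580.4 and 24080.5 on the castrated arrays. Rsph4a, of the radial spoke of the axoneme, was at 780.3 and 811 against 1231 and 1314, Enkur at 1518 and 1136 against 2397 and 2554, and the dynein light chain gene Dynlrb2 at 1653 and 1736 against 2314 and 2139.9, without overlap of the groups. In all, the groups did not overlap for 27 of the 43 members, against 51.0% of all genes tested. Foxj1, the regulator of motile cilia, was at 82.4 and 96.7 against 70.1 and 102, with overlap (log2 -0.08, interval -0.67 to 0.51), and its sign depended on which array was left out. Ccno, which is needed to form many cilia in a cell, was lowest of the list at 177 and 145 against 45.7 and 66.9 (log2 -1.54, limma adjusted p = 0.0695).

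Of the receptor genes for sex steroids that were tested, none changed. Esr1 was at 3818 and 3785 on the sham arrays and 3599.9 and 3647 on the castrated arrays, a log2 difference of -0.07 with an interval of -0.55 to 0.42 (limma adjusted p = 0.877). The groups did not overlap, and the interval leaves room for less than a 1.5-fold change in either direction. Pgr encodes the progesterone receptor, which estrogen induces in many tissues, and was at 83.1 and 97.9 against 139 and 140.1 (log2 0.63, limma adjusted p = 0.157). Of 17 tested receptor and coregulator genes 1 rose, the thyroid hormone receptor gene Thra, from 212 and 296 to 474 and 469.7 (log2 0.91, limma adjusted p = 0.0496, 0.0810 to 0.165 with 1 array left out). Vdr, the vitamin D receptor gene, was at 38.2 and 103 against 193 and 209 and did not pass (limma adjusted p = 0.0642).

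Of 36 tested genes of androgen response 2 fell, against a background of 3.14%, and the median was -0.15. The median was 0.0019 without sham array 2 and -0.055 without castrated array 2. Fkbp5, a co-chaperone gene induced by androgens and glucocorticoids in many tissues, went from 305 and 399 to 72.4 and 115 (log2 -1.93, interval -2.54 to -1.32, limma adjusted p = 0.0103, 0.0385 to 0.125 with 1 array left out). Stk39, a kinase that regulates ion cotransporters, went from 438 and 429 to 213 and 225 (log2 -0.98, limma adjusted p = 0.0404), while its other bright probe sets differed by -0.55 and 0.54. Other members of the list, such as Tmprss2 at 199 and 422 against 224 and 119 and Zbtb16 at 327 and 383 against 205 and 290.3, did not pass.

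Of 30 tested genes of estrogen response 5 fell and 1 rose, against backgrounds of 3.14% and 1.53%, with a median of -0.14 (-0.051 without sham array 2, -0.079 without castrated array 2 and -0.35 without sham array 1). There were 1, 0, 0 and 1 falls without sham array 1, sham array 2, castrated array 1 and castrated array 2, in that order. Ltf, the lactoferrin gene, was at 509 and 429 on the sham arrays and 4.36 and 2.85 on the castrated arrays, at least 29.2-fold lower (limma adjusted p = 0.0151). Greb1, a coregulator of the estrogen receptor and its target, went from 1054 and 1197 to 483 and 482 (log2 -1.22, limma adjusted p = 0.0305). Susd3 went from 63.1 and 73.7 to 15.4 and 16.1 (-2.09, limma adjusted p = 0.0110) and Ramp3, a partner of the calcitonin-type receptors, from 95.5 and 122 to 23.5 and 30.1 (-2.02, limma adjusted p = 0.00500). The fifth fall was Pdzk1, given with the endocytosis genes. S100g, the calcium-binding protein calbindin-D9k, moved the other way, from 30.5 and 30.7 to 117 and 160.2 (2.16, interval 1.71 to 2.61, limma adjusted p = 0.00259).

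Enzymes that handle steroids and retinoids were lower in 5 of 24 tested members, and none rose (background of falls 3.14%, median -0.16, -0.31 to -0.23 with 1 array left out). Falls numbered 1, 0, 1 and 2 without sham array 1, sham array 2, castrated array 1 and castrated array 2, in that order. Sult1e1, the estrogen sulfotransferase, went from 382 and 869 to 121 and 172 (log2 -1.998, limma adjusted p = 0.0307), with a wide gap between the sham arrays. Cyp17a1, the enzyme that makes androgen precursors, was dim at 70.9 and 58.5 against 20.2 and 13.2 (-1.84, limma adjusted p = 0.00916). Srd5a3, of the steroid reductase family, went from 46.7 and 68.0 to 26.3 and 14.5 (-1.46, limma adjusted p = 0.0432). Aldh1a1, which makes retinoic acid, went from 2681 and 2956 to 1018 and 1089.9 (-1.42, limma adjusted p = 0.00787), and Crabp2, which carries it to its receptor, from 42.6 and 44.8 to 0.872 and 2.55 (at least 2.73-fold, limma adjusted p = 0.00482).

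All 20 tested genes of cholesterol synthesis had a negative difference, with a median of -0.55, and 5 fell, against a background of 3.14%. Nsdhl, of sterol demethylation, went from 450.3 and 445 to 120.2 and 185 (log2 -1.59, limma adjusted p = 0.0147). Cyp51, also of sterol demethylation, went from 298 and 287 to 93.2 and 105 (-1.56, limma adjusted p = 0.0166). Msmo1 (-1.23), the isomerase gene Idi1 (-1.22) and Hsd17b7 (-1.19) were the others, and a dim probe set of Hsd17b7 differed by 0.66. Hmgcs1, at the entry of the pathway, was at 4540.2 and 4113 against 3721 and 3244 without passing (limma adjusted p = 0.385). With 1 array left out, 18 to 20 of the 20 stayed negative and at most 1 passed, the one without castrated array 2.

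All 30 tested genes of oxidative phosphorylation had a negative difference as well, with a median of -0.34, and 26 to 30 of them were negative with 1 array left out. There were 2 falls, against a background of 3.14%: Ndufa1, of complex I, from 1302 and 1246 to 691 and 469 (log2 -1.16, limma adjusted p = 0.0474) and Atp5g1, of the ATP synthase ring, from 564 and 474 to 273 and 229 (-1.05, limma adjusted p = 0.0263). A dimmer probe set of Atp5g1 differed by 0.17. Neither call held with any array left out. 

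Of 32 tested genes of glutathione and xenobiotic defence 6 fell, none rose, and the median was -0.56, against a background of falls of 3.14%. Falls numbered 0, 0, 0 and 5 without sham array 1, sham array 2, castrated array 1 and castrated array 2, in that order. Glutathione transferases of the mu class made up 4 of them. Gstm5 went from 3236 and 3674 to 738 and 1232 (log2 -1.85, limma adjusted p = 0.0123), Gstm2 from 3119.8 and 2852 to 807 and 1232 (-1.58), Gstm7 from 1527 and 1538 to 208 and 538 (-2.20) and Gstm1 from 2727 and 2625 to 1213 and 1506 (-0.99). These genes are close paralogs, and their probe sets may share signal. Gstp1 (-0.89) and the glutathione peroxidase gene Gpx7 (-1.07) also fell. Mgst1, a microsomal transferase gene, was higher at 1071 and 1368 against 1884 and 1999, and catalase (Cat) at 1827 and 1749 against 2686 and 2463, and neither passed.

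Other function lists had few changes, beside background shares of 3.14% for falls and 1.53% for rises. In endoplasmic reticulum folding 2 of 30 fell, Manf (-1.04) and Pdia6 (-0.93). In tight and adherens junctions 2 of 23 fell, the claudin genes Cldn10, from 1626 and 1601 to 494 and 588, and Cldn23, from 82.2 and 65.9 to 30.1 and 16.8. Of 25 interferon response genes 1 fell, the exonuclease gene Isg20, from 326 and 229.7 to 8.30 and 31.0 (log2 -3.62, limma adjusted p = 0.00695), and of 18 transcription factors of tract segments 1 fell, Hoxd10, from 128 and 197 to 61.6 and 45.9. In apoptosis and regression 2 of 30 rose, Igfbp3 and the membrane protease gene Mmp14 (1.08), and 2 fell, Mmp7 and Bid (-1.03), of which Bid has a dim probe set at 0.85. No gene changed among 19 of ERK signalling and its feedback, 25 immediate early genes, 21 of the cell cycle and 19 of acute phase and complement. Their medians were 0.22, 0.30, 0.21 and -0.45. The sign was not steady for immediate early genes, at -0.048 without sham array 1, nor for the cell cycle, at 0.021 without sham array 2 and -0.022 without castrated array 1.

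**Figure D3:**
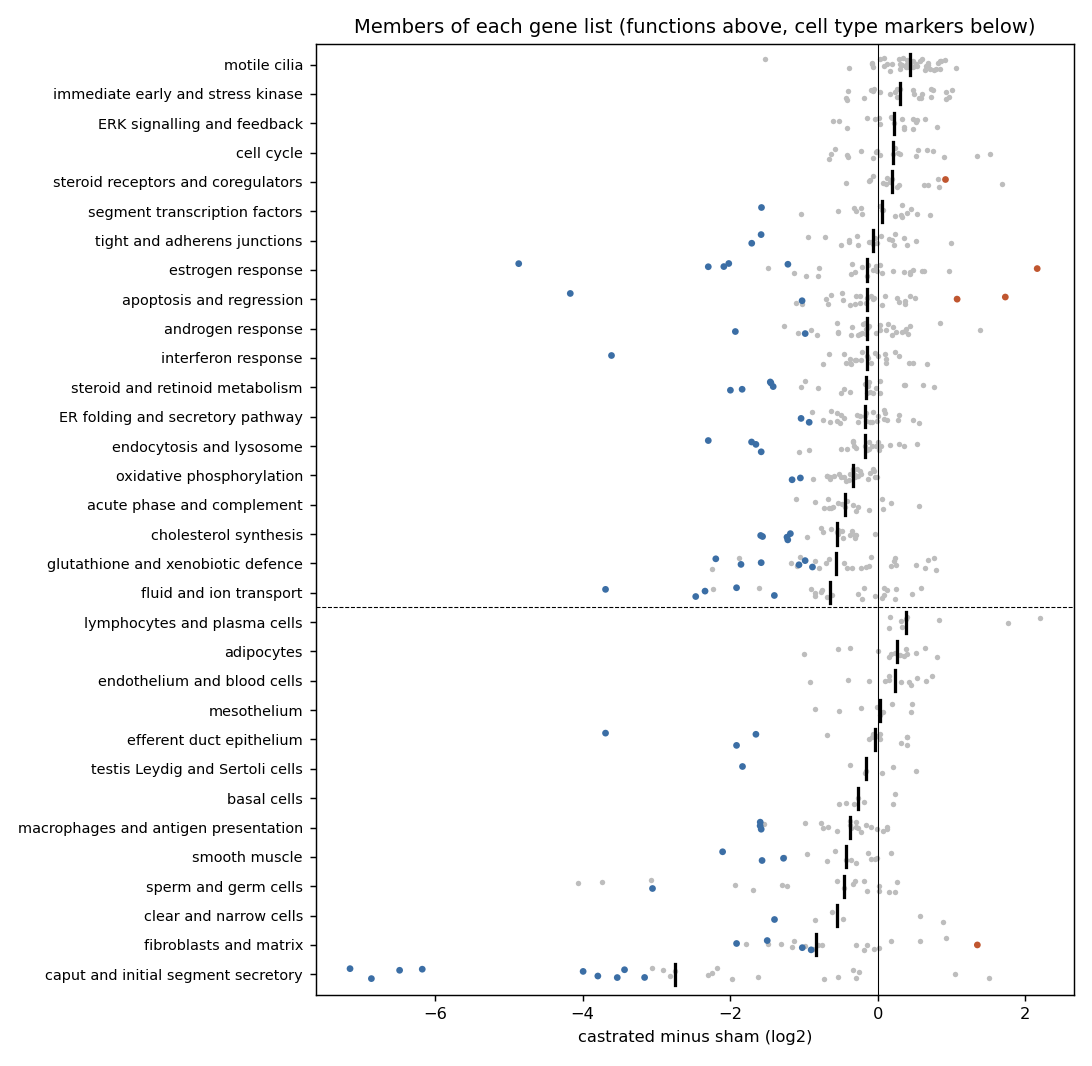
Each point is a tested member of 1 of 32 gene lists, with function lists above and cell type markers below the dashed line, placed at its castrated minus sham difference (log2); blue points fell and orange points rose in limma's test, grey points did not pass, and the black bar is the list's median. The caput and initial segment list lies lowest with a median of -2.75, the cholesterol and oxidative phosphorylation lists lie wholly below 0, and the motile cilia list lies mostly above it.

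The rises were smaller and of mixed function. Ang, the secreted ribonuclease angiogenin, was at 6.53 and 9.76 on the sham arrays and 424 and 218 on the castrated arrays, at least 19.0-fold higher (interval of the log2 difference 3.57 to 4.93, limma adjusted p = 0.000796, 0.00946 to 0.0644 with 1 array left out, the last of these without sham array 2). The probe set is of a kind that can match several family members, and its 2 other probe sets differed by 2.95 and 1.70. Gabra2, a GABA receptor subunit gene, was at 7.13 and 7.75 against 135 and 104 (at least 7.38-fold, limma adjusted p = 0.000974), and Grik3, a kainate-type glutamate receptor gene, at 8.36 and 16 against 78.8 and 88.3 (5.21-fold, limma adjusted p = 0.000775). In each of the 3 genes the sham arrays were at or near 16 and both castrated arrays well above it.

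Slc13a5, a citrate transporter gene, rose from 67.0 and 52.8 to 318 and 325 (5.41-fold, limma adjusted p = 0.00386). Aldoc, a glycolytic aldolase, rose from 160.5 and 169 to 671 and 785 (4.4-fold, limma adjusted p = 0.00259). Igfbp3, which binds insulin-like growth factors, rose from 112 and 125.2 to 397 and 387 (3.31-fold, limma adjusted p = 0.00633). The castrated arrays were closely alike in these genes and above both sham arrays. Serpinb1b, an intracellular protease inhibitor gene, rose from 49.4 and 36.2 to 219 and 194. Epha4, an ephrin receptor gene, rose from 202 and 139 to 661 and 716. Tnfaip2 rose from 64.2 and 89.8 to 354 and 282. Each of these 3 rose between 4-fold and 5-fold, with limma adjusted p values of 0.00259, 0.0115 and 0.0128. Wif1, a secreted inhibitor of WNT proteins, was at 24.0 and 9.40 against 145 and 106 (limma adjusted p = 0.0242), and the homeobox gene Meox2 at 16 and 23.6 against 110.1 and 74.8 (limma adjusted p = 0.0205). Spink1, a secreted trypsin inhibitor gene, rose while its relative Spink10 fell, from 5.70 and 15.0 to 78.9 and 60.6 (at least 4.32-fold, limma adjusted p = 0.00840). Gm266, from 25.7 and 71.9 to 307 and 191, and Fzd10os, from 34.0 and 33.6 to 168 and 121, complete the 12 largest rises. Of the rises given here only Grik3 passed whichever array was left out.

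Promoters were read for the genes with the deepest falls among those above 16 on all arrays. Slc9a3 is shown for fluid transport, Acbd7 for the steadiest fall among the 7 genes with a window and Ces5a for a motif match. No window was read for Cd52, which is also among the deepest falls by that rule. The windows are the 250 bases before a RefSeq start, 5′ to 3′ on the gene's strand, with coordinates on GRCm38.p6, and capitals mark TGTTCT or its reverse complement AGAACA, the core of an androgen response half-site. The windows lie at chr13:74121163-74121412 (plus strand) for Slc9a3, chr2:3335918-3336167 (plus strand) for Acbd7 and chr8:93535841-93536090 (minus strand) for Ces5a.
Slc9a3: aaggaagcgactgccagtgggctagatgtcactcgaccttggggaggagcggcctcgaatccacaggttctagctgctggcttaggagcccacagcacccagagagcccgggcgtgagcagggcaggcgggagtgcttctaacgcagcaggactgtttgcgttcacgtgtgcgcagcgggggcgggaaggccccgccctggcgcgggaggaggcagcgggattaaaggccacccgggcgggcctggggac
Acbd7: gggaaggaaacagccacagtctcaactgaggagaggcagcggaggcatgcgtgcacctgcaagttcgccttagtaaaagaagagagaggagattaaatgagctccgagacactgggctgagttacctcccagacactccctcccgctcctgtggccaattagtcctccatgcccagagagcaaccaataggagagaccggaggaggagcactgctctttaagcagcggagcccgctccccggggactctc
Ces5a: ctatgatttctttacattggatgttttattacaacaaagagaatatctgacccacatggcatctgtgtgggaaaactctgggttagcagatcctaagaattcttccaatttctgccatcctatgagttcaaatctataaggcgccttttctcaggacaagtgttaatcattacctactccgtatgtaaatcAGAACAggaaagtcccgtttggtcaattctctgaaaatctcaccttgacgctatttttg

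Of 8 windows of 7 such genes 2 held the motif on either strand. Ces5a has it at position -59, counted back from the start, and Mmp7 has 2 matches in the window of a second start, which lies directly after its first. The motif was in 62 of 415 windows of the genes that fell (14.94%, 336 genes matched by symbol), 23 of 213 windows of the genes that rose (10.8%), 11.24% of windows of all tested genes and 16.08% of all 32851 RefSeq windows of that length. The share among falls thus lay between that of the tested genes and that of all windows. The full palindromes, AGAACA and TGTTCT parted by any 3 bases and GGTCA and TGACC parted by any 3 (an estrogen response element), were in no window of a changed gene and in 3 and 21 windows in all. A match is a description of letters, not of a bound site.

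Markers of other cell types were read on the same arrays, where fewer cells of a type and less RNA per cell cannot be told apart. The caput and initial segment secretory list, for the tissue that adjoins the ducts, had 25 tested members, of which 9 fell, none rose and 23 had a negative difference (background of falls 3.14%, median -2.75). Its summed intensity was 17405 and 21839 on the sham arrays and 6320 and 3330 on the castrated arrays. The list includes Spink10, Spint4, Adam7, Lcn5, Crisp4, Defb10, Defb21, Lcn12 and Lypd8, which are its 9 falls. Members such as Lcn9, Pate5 and Rnase10 passed the filter on dim genes only through sham array 2, with both castrated arrays under 16. The filter thus fixed their negative sign, so the count of negative differences and the median are not a test of the list. Without sham array 2, 21 members were tested, 3 fell and the median was -0.68. There were also 3 falls without castrated array 1 and without castrated array 2.

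The sham arrays differed from each other in this list. Rnase10, a secreted ribonuclease family gene of the initial segment, was at 7.52 on sham array 1 and 386 on sham array 2. Lcn9 was at 9.21 and 797, Lcn8 at 15.5 and 1126, Pate5 at 6.97 and 249, and Cst12 at 15.6 and 349. All 5 genes were thus under 16 on sham array 1 and well above it on sham array 2. Castrated array 1 held Cst12 at 794 and Cst11 at 363, against 57.0 and 23.4 on castrated array 2. By contrast the sham arrays were alike for Spink10, at 100.3% and 81.2% of its mean in sham caput, which was 2528 ± 71.2 (SD, n = 2). Adam7 stood at 16.2% and 17.4% of its sham caput mean, Lcn12 at 8.13% and 7.78% and Defb10 at 71.5% and 54.1%. The tissues were labelled with different kits, so such shares set levels from separate procedures side by side. The falls of Spink10, Adam7, Lcn12 and Defb10 therefore rest on sham arrays of like level, while Gpx5, at 27.3 and 576 against 43.6 and 2.26, and Rnase10 did not pass.

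**Figure D4:**
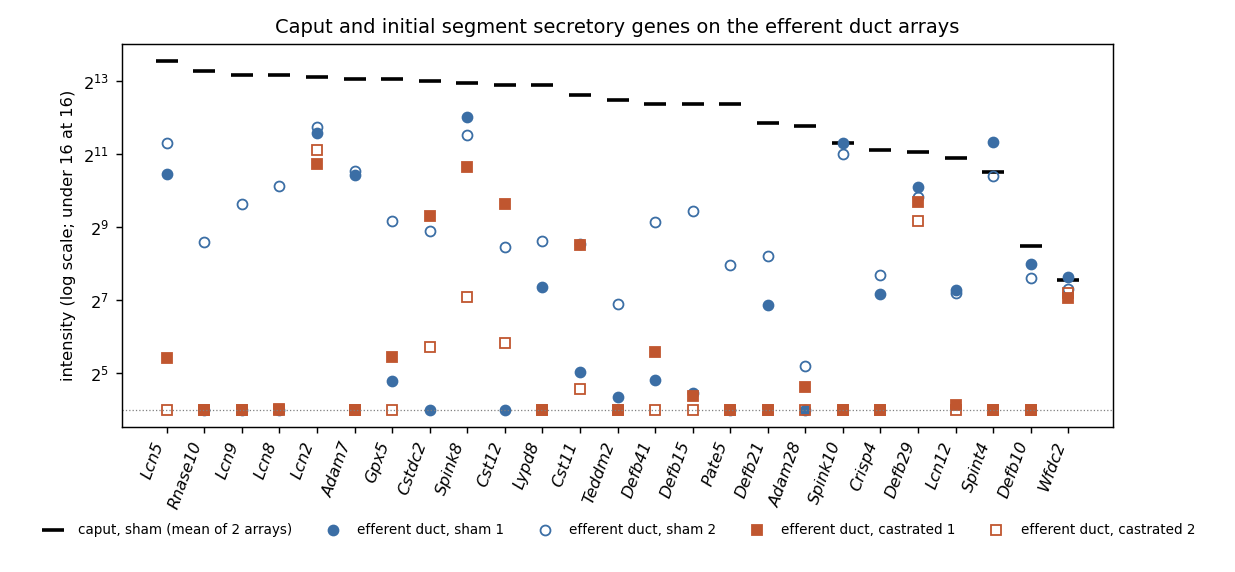
Intensity of 25 caput and initial segment secretory genes (log scale, values under 16 drawn at 16), with the sham caput mean of 2 arrays as a black bar and the 4 efferent duct arrays as circles (sham) and squares (castrated), filled for array 1 and open for array 2. Sham array 2 is far above sham array 1 for Rnase10, Lcn9, Lcn8 and Pate5, while both are alike for Spink10, Adam7 and Lcn12.

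Of 19 tested sperm and germ cell genes 1 fell. Prm1, a protamine gene that packs sperm DNA, was at 311 and 339 against 23.4 and 8.99, and Prm2 at 133 and 135 against 13.8 and 8.03. Both sham arrays were far above both castrated arrays, but neither passed in the fit with the hormone arrays, where Prm1 was at 1043 and 73.3 after testosterone propionate and 227 and 76.0 after estradiol, and Prm2 at 410.4 and 15.8 and at 37.4 and 17.4 (limma adjusted p = 0.0829 and 0.205). With only the 4 arrays compared, limma's adjusted p was 0.00649 for the log2 fold change of Prm1 and 0.00627 for the log2 fold change of Prm2. That fit also lost calls: of the 79 changed genes named by rule, 47 stayed past the threshold in it and 32 did not. Odf1, of the sperm tail, passed, from 112 and 159 to 1.89 and 1.03 (at least 8.33-fold, limma adjusted p = 0.0120). No other member changed, and the list's median was -0.46. The list's summed intensity was 2762 and 2603 on the sham arrays and 1575 and 1929 on the castrated arrays.

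Of 22 markers of macrophages and antigen presentation 3 fell, against a background of 3.14%, all of MHC class II: Cd74, H2-Ab1 from 2422 and 2631 to 776 and 901 (log2 -1.59, limma adjusted p = 0.00633) and H2-Eb1 from 1068 and 1159 to 275 and 493 (-1.60, limma adjusted p = 0.0262). Of the 22 members 19 had a negative difference, and the list's median was -0.37 (-0.66 to -0.14 with 1 array left out). Defining macrophage markers did not pass: Csf1r was at 1095 and 1502 against 1166 and 548, Cd68 at 46.5 and 44.6 against 44.3 and 41.4 and Lyz2 at 326 and 447 against 426 and 409, with overlap for Csf1r and Lyz2. None of the 3 falls passed without sham array 1, sham array 2 or castrated array 1, and all 3 did without castrated array 2. The list's summed intensity was 14662 and 16139 on the sham arrays and 8664 and 8173 on the castrated arrays. Lymphocyte markers had 9 tested members, all with a positive difference and none past the test: the joining chain gene Jchain was at 114 and 216 against 792 and 362 and Ighm, of immunoglobulin M, at 83.6 and 34.2 against 484 and 124. Both were higher on castrated array 1. All 9 markers stayed positive without sham array 2. The number was 7 of 9 without sham array 1, 7 of 8 without castrated array 1 and 6 of 9 without castrated array 2.

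Of 22 fibroblast and matrix genes 4 fell and 1 rose, against backgrounds of 3.14% and 1.53% (median -0.84, and -0.43 without sham array 2). There were 2 falls without sham array 1 and none in the other 3 fits without 1 array. The collagen genes Col1a2, from 2287 and 3179 to 776 and 659 (log2 -1.91, limma adjusted p = 0.00619), Col3a1, from 1803 and 2720.2 to 793 and 774 (-1.50), and Col1a1, from 2465 and 2861 to 1427 and 1195 (-1.02), fell with Sparc (-0.90), which binds collagen. A dim probe set of Col1a2 differed by 0.38 and another, brighter one by -1.90. Fbln1, the matrix protein fibulin 1, rose from 79.2 and 108 to 193 and 287 (1.35, limma adjusted p = 0.0397). Dcn and Pdgfra, which mark fibroblasts, were at 2329.8 and 2921 against 3067 and 2846 and 1081 and 1505 against 2298 and 1567, without passing. The summed intensity of the list was 20024 and 26596 on the sham arrays and 16951 and 13022 on the castrated arrays.

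Of 15 smooth muscle genes 3 fell, against a background of 3.14%, and none in any fit without 1 array (median -0.43, and -0.18 without castrated array 2): Actg2, from 295 and 375 to 88.7 and 67.4 (log2 -2.10, limma adjusted p = 0.00812), the intermediate filament gene Synm, from 232 and 336 to 106 and 83.4, and the calponin gene Cnn1, from 103 and 128 to 58.1 and 38.5. Acta2, which marks smooth muscle, was at 2571 and 2580.1 against 2834 and 1951, with overlap. A dim probe set of Acta2 was at 51.0 and 70.6 against 14.4 and 19.0 (log2 -1.79). Of the 15 smooth muscle genes 14 had a negative difference. None of 14 adipocyte markers changed, and Adipoq, which is made by fat cells, was at 567 and 611 against 594 and 961. None changed among 7 basal cell, 12 endothelial and blood and 9 mesothelial markers. In the clear and narrow cell list of 6 the only change was Car2, and in the Leydig and Sertoli cell list of 7 it was Cyp17a1, both given with other lists. General markers of the duct epithelium did not pass: Pax8 was at 268 and 262 against 302 and 402, Cdh1 at 1196 and 1000.0 against 956 and 1058 and Krt8 at 2047 and 2129.8 against 2387 and 1789, and the 3 falls among 14 members of that list were Slc9a3, Aqp1 and Lrp2.

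The castration effect in the ducts was then set against that in the caput in a fit of all 16 arrays, to see which changes were shared. Tissue and labelling kit changed together and cannot be told apart in it. The series text has both tissues collected from each sample, and with duct and caput of equal treatment and number paired 1142 genes differed. The effect differed between the tissues for 1595 of 14853 genes (10.7%), and 3665 genes (24.7%) changed in the caput. Of the 616 genes changed in the ducts, 241 changed the same way in the caput, 39.1% of the duct list and 6.58% of the caput list: 181 fell and 60 rose in both. The 616 are from the fit of 8 duct arrays, and the caput list is from the fit of 16. In the fit of 16 arrays 1797 genes changed in the ducts, so these shares and list sizes come from unlike fits. Another 30 changed in opposite ways, and the tissue difference passed the test for 294 of the 616. The 616 were chosen by their effect on the same duct arrays that enter the tissue difference. A share above the 10.7% of all genes is therefore built in. The same selection applies to genes named for a large duct change, such as Cd52, Odam, Gabra2 and Grik3.

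The effect on the water channel gene and on megalin differed by tissue. The difference of log2 effects, duct minus caput, was -1.27 for Aqp1 (95% interval -1.89 to -0.65, limma adjusted p = 0.0159) and -1.99 for Lrp2 (-2.99 to -0.99, limma adjusted p = 0.0183). In the caput, Lrp2 was at 81.4 and 67.0 on the sham arrays and 90.5 and 96.1 on the castrated arrays, and Aqp1 at 370.0 and 464 against 279 and 252. Lrp2 thus fell in the ducts and did not pass in the caput (limma adjusted p = 0.502), while Aqp1 fell in both tissues, more so in the ducts. For Slc9a3 the tissue difference was -2.83 (-4.86 to -0.80, limma adjusted p = 0.0748, 0.0348 with tissues paired), and caput levels were low at 35.1 and 24.1 against 15.0 and 14.1, the last pair under 16 and counted as 16. Esr1 rose in the caput, from 567 and 511 to 903 and 1065 (log2 0.87, limma adjusted p = 0.00676), and not in the ducts, with a difference of -0.93 (-1.52 to -0.35, limma adjusted p = 0.0469). Foxj1 also rose in the caput, from 43.0 and 42.1 to 123 and 118, and the difference was -1.58 (limma adjusted p = 0.0152, 0.0503 with tissues paired).

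Fkbp5 fell in both tissues, with log2 differences of -1.93 in the ducts and -1.49 in the caput, without a difference past the test (-0.44, interval -1.08 to 0.20, limma adjusted p = 0.363). Cd52 fell in both and further in the ducts (-1.85, limma adjusted p = 0.000862), and Spink10 fell in both, to 11 and 8.59 in the ducts, under 16, and to 35.1 and 38.4 in the caput. The duct fall of Spink10 is a lower bound, at log2 -7.16 against -6.10 in the caput. The tissue difference of Spink10, set in part by the floor of 16, did not pass (-1.05, interval -1.78 to -0.32, limma adjusted p = 0.0657). Odam fell in the ducts and was at 59.99 and 58.7 against 71.3 and 80.4 in the caput (difference -4.88, limma adjusted p = 4.48e-05). Gabra2 and Grik3 rose in the ducts, while in the caput Gabra2 was under 16 on all 4 arrays and Grik3 at 1.08 and 16.8 against 15.9 and 11 (limma adjusted p for the tissue difference 2.23e-05 and 5.99e-06). MHC class II genes differed as well: H2-Ab1 by -1.84 (limma adjusted p = 0.00767) and Cd74 by -2.21 (limma adjusted p = 0.00173).

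The hormone-treated castrated animals give the same genes in 4 more efferent duct arrays. They are set beside the vehicle arrays without a test, because their actin 3' to 5' ratios were 0.913 to 1.93 (log2), below all 4 vehicle arrays. Their Cre spike-ins, at 11.5 to 12.0 (log2), were also below all 4. The spread behind the p-values given here nonetheless comes in part from these unlike arrays. With only the 4 vehicle arrays in the fit 223 genes passed, against 616. Slc9a3 was at 195 and 444 after testosterone propionate, against 25.1 and 26.9 after estradiol, and Slc26a3 at 741 and 1147 against 60.9 and 75.6. Aqp1 was at 594 and 755 against 642 and 467, and Lrp2 at 298 and 588 against 313 and 381. Both exchanger genes were thus brighter on each testosterone array than on either estradiol array, while the hormone groups overlapped for Aqp1 and Lrp2. Fkbp5 was at 740.5 and 790.4 against 256 and 217, Susd3 at 254 and 286 against 55.1 and 29.5 and Cad at 545 and 420.3 against 122 and 115. These 3 genes, too, were higher on both testosterone arrays. Spink10 was at 252 and 138 against 5.37 and 19.5, and Npy stayed under 16 on all 4. Ang, the largest rise, was at 219.7 and 201 against 192 and 187, all well above its sham level.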

How the data were processed

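Total RNA had been extracted with TRIzol and labelled with the Ovation amplification system for the efferent duct and the One-Cycle kit for the caput, per the labels. The deposited values are linear intensity. Per the submitters' processing notes they come from RMA, without a version, but they are not log2 values and all arrays share 1 trimmed mean (2% left out at each end). Probe sets were named from the platform annotation: of 45101 probe sets 34958 had 1 symbol, 932 had several and 9211 none. Those with 1 symbol were used, except 13 control probe sets. Genes with several probe sets (9010 of 18193) were read from the brightest over 16 arrays.

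Differences were fitted here with limma 3.58.1 in R 4.3.3 (lmFit, contrasts, eBayes), on 8 arrays in 4 groups of 2 or, for the tissue difference, on 16 arrays, with p-values adjusted by Benjamini and Hochberg over all genes tested. The fit was tested on simulated data. Summaries were made in Python 3.11.15 with pandas 2.3.3, and plots with matplotlib 3.10.9. The members, the 32 gene lists (19 of functions and 13 of cell type markers, 790 of 875 entries measured) and the alternatives were chosen with earlier results of these data known. The rule named the 12 largest rises and falls, 8 more each way among genes above 16 on all 4 arrays, up to 4 members per list by p, and 19 fixed genes. Other genes were named after their values were seen, among them Npy, Haao, Cad, Fbp1, Slc26a3, Ltf, Greb1, Srd5a3, Idi1 and members that did not pass. The fits given do not pair samples by replicate number: deviations of equal numbers correlated at -0.12 between the vehicle groups, and at -0.005 to 0.088 between the tissues of a treatment. Whether equal numbers of the tissues are 1 animal is not given in the sources used here, and the low correlation does not settle it. Alternatives were another floor, filter, probe set rule, scaling, variance prior, set of arrays and block, and each array left out.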

Additional observations from a re-analysis of the deposited data

Results flagged for a closer look

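For 5 of the genes to be given whatever their values, the castration effect differed between efferent duct and caput in limma's test of the difference, in which tissue and labelling kit cannot be told apart. The differences, duct minus caput on the log2 scale, were -0.93 for Esr1, -1.27 for Aqp1, -1.99 for Lrp2, -1.58 for Foxj1 and 6.24 for Rnase10, the last set by the floor of 16 and not a measured size. For Rnase10 the caput fell from 10312 and 9692 to 24.4 and 29.7, while the efferent duct value rests on sham array 2, at 386, since sham array 1 was at 7.52 and the castrated arrays at 0.791 and 12.7, all under 16.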

How the results depend on the processing

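The number of genes past the threshold moved most with the arrays used. It was 616 in the fit given, 328 without a floor, 381 with a floor of 32, 236 without a filter on dim genes, 402 with a gene's probe sets averaged, 223 with only the 4 arrays compared, 1797 with all 16 arrays and 28 to 279 with 1 array left out. In the fits without 1 array the lone array of a group is assumed to vary like the other groups. Quantile normalization gave 220 rises and 313 falls. The tissue difference held for 799 genes without a floor, against 1595, and 1216 to 1855 with 1 duct array left out. The 79 changed genes named by rule kept their direction in every one of 16 alternatives that tested them, and 7 of them stayed past the threshold with each array left out. Signs turned only where no call was made: the log2 fold change of Foxj1 was 0.04 without sham replicate 2, 0.19 without castrated replicate 1 and -0.35 without castrated replicate 2, and the log2 fold change of Acta2 was 0.14 without castrated replicate 2 and -0.40 without castrated replicate 1.

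Equal replicate numbers of the 2 groups share no stated animal or day. With the replicate number as a block 488 genes passed, with the sham numbers exchanged, an alternative chosen after seeing the data, 646 passed, and with a block within each tissue the tissue difference held for 1458. With the tissues of equal number paired, also chosen after seeing the data, it held for 1142, and among 14 genes compared it was lost for Foxj1 and gained for Slc9a3. The number of arrays limits precision: the median 95% interval of a difference was the estimate ± 0.53 (log2). Genes near 16 are dim, and their folds are bounds.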
